A study of Rattus norvegicus with 9 samples.

Results

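The 152 most abundant gene rows of cultured rat cortical neurons are described here, out of 32883 gene rows counted in each of 9 RNA sequencing libraries. A row is 1 Ensembl rat gene identifier with its read count. The row with the highest summed count was set aside, CPM (counts scaled to a library total of 1000000) were computed without it, and the other 151 rows were those with a mean of 1000 CPM or more over the 9 libraries. The rows were thus chosen by their own counts in these libraries, and their levels are given as a description.

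The neurons were cultured for 14 days and were transduced for 4 days with lentivirus carrying a short hairpin RNA, which lowers its target transcript through RNA interference. Each group held 3 libraries of poly(A) RNA: shControl, the control hairpin; shPum2, which the labels call Pum2 depletion; and shStau2, labelled Stau2 depletion. All 3 groups were transduced, so none was a culture without virus, and the labels do not say which sequence the control hairpin holds. The labels do not name strain, age, sex or whether the replicates are separate cultures. A p-value here refers only to the spread among these samples, and that spread may be technical.

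Pumilio2 is an RNA-binding protein that recognises a short motif in mRNAs and mostly lowers their translation or stability. Staufen2 binds double-stranded stretches of RNA, and in neurons it is a component of granules that carry mRNAs into dendrites. In any poly(A) library a small set of transcripts takes a large part of the reads. Through their share, these rows bear on the scale on which every other row is read. A row with many reads can be a long transcript as well as an abundant one. No transcript lengths were used, and ranks below are ranks of read count, not of molecules.

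The files pair the identifiers with no gene symbol, and 0 of the 32883 identifiers matched the RefSeq name table used here. Rows are therefore called by their rank of mean CPM, with rank 1 for the row set aside, and identifiers are printed for ranks 1 to 10 and for the 2 rows that fell furthest. What these genes do, whether neuronal, glial or other markers are among them, and the levels of Pum2 and Stau2 themselves are not reported.

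A library had 779386 to 979550 counts in gene rows. That was 1.76% to 2.14% of its listed reads, while no-feature reads made up 86.0% to 88.1%. The counted strand is not stated, so a level is a level of reads assigned to that row on the counted strand. Whether that is the strand of the mRNA or the opposite one could not be settled. The rows are thus the most abundant by these counts, and are not shown to be the most abundant mRNAs. Each of the 152 rows had at least 204 counts in every library, and 204 counts carry a counting error of 7.0%. The library shStau2 replicate 3 stood apart from its group. Counts of rows in comparisons with shStau2 are given with and without it.

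The 152 rows are 0.462% of the gene rows but held between 60.0% (shStau2 replicate 1) and 69.4% (shPum2 replicate 2) of the gene counts of a library. Levels fell steeply with rank. Of the 151 rows other than rank 1, 12 had a mean of 10000 CPM or more, and together they took 20.1% of the reduced total on average. A further 18 rows lay between 5000 and 10000 CPM, 45 between 2000 and 5000 CPM, and 76 between 1000 and 2000 CPM, with mean summed shares of 12.1%, 13.9% and 10.7%. The number of rows needed to reach 50% of the reduced total ran from 65 in shStau2 replicate 3 to 121 in shControl replicate 2. The plot of level against rank shows this decline and the range of each row.

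**Figure D1:**
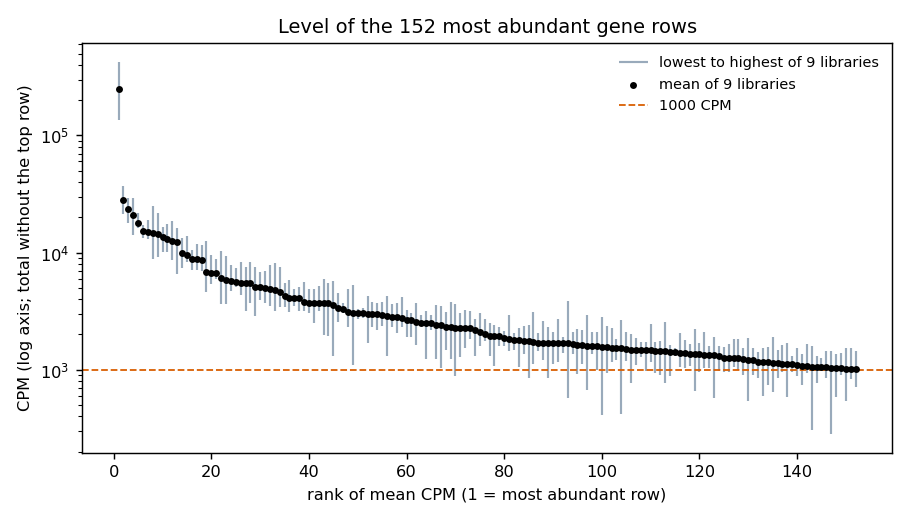
CPM of each of the 152 rows (log axis, totals without the most abundant row) against rank of mean CPM. Points are means over 9 libraries, bars run from the lowest to the highest library and the dashed line marks 1000 CPM. Rank 1 lies well above the rest, and several bars beyond rank 90 reach below 500 CPM.

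At the threshold the ranking was fine-grained. Ranks 151 and 152, the lowest inside, had means of 1014 and 1004 CPM, and ranks 153 and 154, the highest outside, had 998.9 and 998.8 CPM. Rank 154 lay between 946 and 1092 CPM in the 9 libraries, while rank 152 ran from 715 to 1436 CPM. A steady row was thus left out and a variable one taken in by a few CPM. Of the 152 rows, 105 reached 1000 CPM in every library. The number that did so in a given library was 143, 144 and 149 in shControl, 147, 135 and 141 in shPum2, and 133, 130 and 135 in shStau2 (replicates 1 to 3). Every shStau2 library was at or below the lowest library of the other groups in this count, with shPum2 replicate 2 equal to shStau2 replicate 3. The count uses the values that chose the rows, and 6 of the 9 libraries in that mean were not shStau2. This order may thus follow from the choice and is not a result about the groups.

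Rank 1, ENSRNOG00000020346, was the only row that could move the scale of a library by itself. It had 222920, 278060 and 148129 counts in shControl replicates 1 to 3, which were 24.4%, 29.8% and 18.9% of the gene counts. Its share was 19.1%, 23.9% and 15.6% in shPum2, and 12%, 20.3% and 12.5% in shStau2. Counting error on these shares was small, with a 95% Wilson interval no wider than 0.0927 percentage points on either side, so the spread within a group lay far outside it. In each group the highest share was in replicate 2, and the groups overlapped in every comparison.

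The mean share of rank 1 was 24.3% ± 5.4 under the control hairpin, 19.5% ± 4.2 under that against Pum2 and 14.9% ± 4.7 under that against Stau2 (SD, n = 3 each). The difference of shStau2 from shControl was -9.42 percentage points (two-sided exact permutation test, p = 0.2, Benjamini-Hochberg adjusted p = 0.6 over 6 share tests). That of shPum2 from shControl was -4.83 points (exact permutation test, p = 0.3, adjusted p = 0.6) and that of shPum2 from shStau2 was 4.59 points (exact permutation test, p = 0.3, adjusted p = 0.6). With 3 libraries against 3 this test cannot go below 0.1. Its p-values therefore cannot call or dismiss a difference of this size, and the shares are given as they were measured. With 1 library left out, the difference ran from -12.1 to -6.72 points for shStau2 against shControl, from -7.55 to -2.12 points for shPum2 against shControl and from 2.41 to 7.28 points for shPum2 against shStau2. Fitted on the whole table, the log2 difference of rank 1 was -0.77 (SE 0.31) in shStau2 and -0.37 (SE 0.31) in shPum2 against shControl, and 0.39 (SE 0.31) between shPum2 and shStau2 (edgeR quasi-likelihood test, adjusted p = 0.36, 0.999 and 0.68). In bulk RNA, fewer cells of a type and less RNA per cell cannot be told apart, here and in every difference below.

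The other 151 rows together held a steadier share when rank 1 was left out of the total. Of the gene counts without rank 1 they took 56.6%, 53.3% and 56.9% in shControl, 53.7%, 59.8% and 56.5% in shPum2, and 54.6%, 57.6% and 62.4% in shStau2, each with a 95% Wilson interval of at most 0.123 points on either side. The groups overlapped. The means were 55.6% ± 2.0, 56.6% ± 3.1 and 58.2% ± 3.9 (SD, n = 3 each), and the same test, which cannot go below 0.1 here, gave an exact permutation p of 0.6, 0.4 and 0.6 for shPum2 against shControl, shStau2 against shControl and shPum2 against shStau2 (adjusted p = 0.6 for each). As a share of the gene counts with rank 1 included, which rank 1 itself moves, the difference from shControl was 7.39 points in place of 2.6 for shStau2 and 3.43 points in place of 1.07 for shPum2. The SDs of the 151 rows on that total were 4.38, 2.12 and 4.53 points in shControl, shPum2 and shStau2. Those of rank 1 were 5.43, 4.15 and 4.66 points. On either total the highest share of the 151 rows was that of shStau2 replicate 3. Without that library the excess of shStau2 over shControl went from 2.6 to 0.491 points on the total without rank 1.

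**Figure D2:**
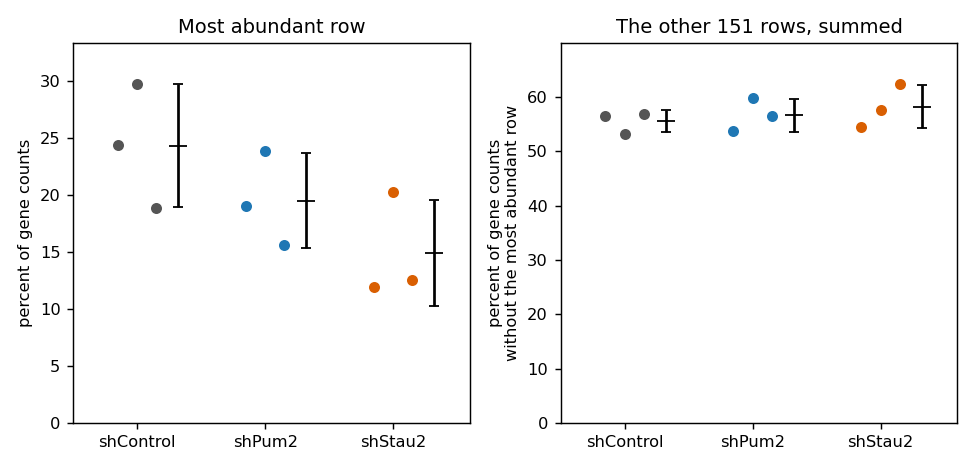
Share of the most abundant row in the gene counts (left) and summed share of the other 151 rows in the gene counts without it (right), in percent, for 3 libraries a group in the order of replicate. Bars are mean ± SD (n = 3), and the groups overlap in both panels.

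Ranks 2 to 10 took 14.8% to 17.9% of the reduced total. Rank 2, ENSRNOG00000032882, had 21217, 24412 and 23970 CPM in shControl, 26274, 29013 and 26059 CPM in shPum2, and 37003, 34534 and 29941 CPM in shStau2. The 3 groups did not overlap in this row, with shControl lowest and shStau2 highest. The fitted log2 difference of shStau2 from shControl was 0.64 (SE 0.22, edgeR adjusted p = 0.27) and that of shPum2 was 0.24 (SE 0.22, adjusted p = 0.999), so neither passed.

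Rank 3, ENSRNOG00000013987, ran from 21404 to 29235 CPM in shControl, from 20525 to 25365 CPM in shPum2 and from 17984 to 26791 CPM in shStau2. Rank 4, ENSRNOG00000029042, had its lowest value in shControl replicate 1 (14050 CPM) and its highest in shStau2 replicate 1 (29135 CPM). In both rows the groups overlapped. Ranks 5, 6 and 7 (ENSRNOG00000019394, ENSRNOG00000000506 and ENSRNOG00000043596) were steadier, with a coefficient of variation (CV, the SD over the 9 libraries as a percentage of the mean) of 9.66%, 9.32% and 12.8%. Each was highest in shStau2 replicate 3, at 21646, 17302 and 18781 CPM.

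Ranks 8 and 9, ENSRNOG00000012579 and ENSRNOG00000013583, ordered their extreme libraries alike. Rank 8 had 14887, 11979 and 10787 CPM in shControl, 12520, 16618 and 8824 CPM in shPum2, and 18401, 24791 and 12944 CPM in shStau2. Rank 9 had 15473, 12636 and 12444 CPM, then 12022, 16114 and 9090 CPM, then 16178, 21735 and 13673 CPM in the same order. Both were highest in shStau2 replicate 2 and lowest in shPum2 replicate 3. The same pair of extremes was found in 14 of the 152 rows (9.21%), ranks 12, 23 and 28 among them, and in 2.0% of all 5697 rows tested. This pair of libraries was picked after the values of ranks 8, 9, 12, 23 and 28 were seen. These rows are thus no support for it, and the shares are a description. Rank 10, ENSRNOG00000016539, lay between 10077 CPM in shStau2 replicate 1 and 16448 CPM in shPum2 replicate 2, and its groups overlapped.

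Between shPum2 and shControl none of the 152 rows passed the test, where 0.0176% of the 5697 rows tested were called higher and none lower (edgeR quasi-likelihood test, adjusted p under 0.05). All 152 rows were among those tested. The count was also 0 with DESeq2 and with limma-voom, and 1 of the 152 rows had an unadjusted p under 0.05, against 1.97% of all rows. That row, rank 123, had 1599, 1350 and 1879 CPM in shControl and 1416, 738 and 578 CPM in shPum2, a log2 difference of -0.84 (SE 0.35, edgeR adjusted p = 0.999), and the groups overlapped. In shStau2 it stood at 1905, 1819 and 667 CPM.

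Fitted differences between shPum2 and shControl were small in most of the 152 rows. The fitted log2 difference was under 0.5 in size in 151 of them, its median size was 0.12 with a median SE of 0.27, and it was above 0 in 83. Over all rows tested the median size was 0.24 with a median SE of 0.40. No library of 1 group reached into the range of the other in 7 rows that were higher in shPum2, or 4.61%, and in 4 that were lower, or 2.63%. The shares over all rows tested were 4.27% and 4.0%. The largest positive difference was that of rank 41, 0.48 (SE 0.28), with 2508 to 4876 CPM in shPum2 and 2575 to 3453 CPM in shControl.

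Between shStau2 and shControl 5 of the 152 rows fell and none rose (edgeR quasi-likelihood test, adjusted p under 0.05). That is 3.29% of the 152 rows, against 0.772% of all rows tested called lower and 0.105% called higher. The median SE of the log2 difference was 0.275 in the 152 rows and 0.401 over all rows tested. The 5 rows were ranks 13, 45, 100, 143 and 147. Ranks 100, 143 and 147 had shStau2 means of 678, 416 and 318 CPM. They reached a mean of 1000 CPM only through the other groups. The choice of rows thus bears on this count, which is a description. The log2 difference was above 0 in 96 of the 152 rows, and its median was 0.17 against 0.040 over all rows tested. This balance rested on shStau2 replicate 3. Without it 62 rows were above 0 and the median was -0.095, against 0.012 over all rows then tested. When libraries were scaled by their totals without rank 1 in place of TMM factors, 79 rows were above 0 and the median was 0.037.

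**Figure D3:**
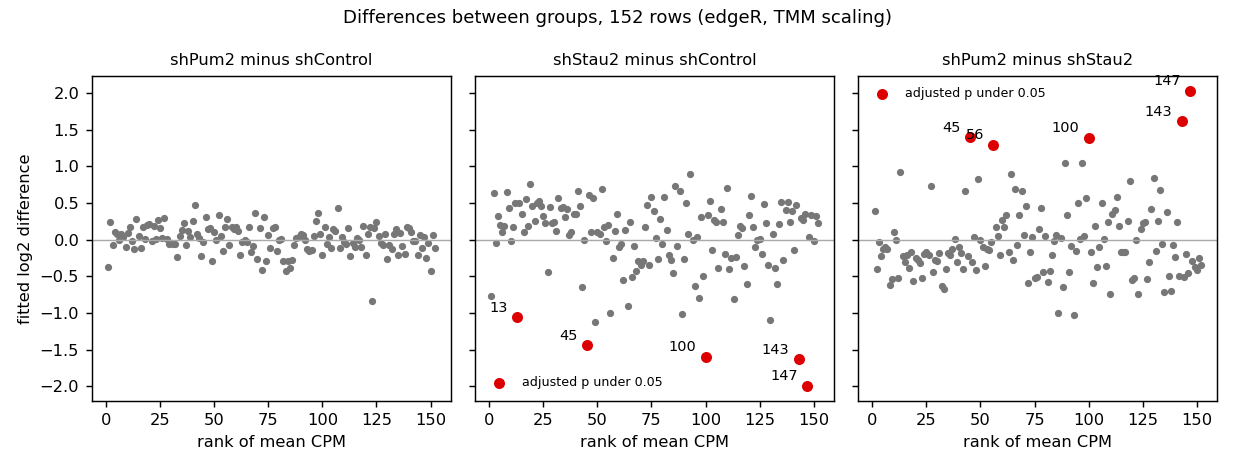
Fitted log2 difference of each of the 152 rows against its rank, for the 3 comparisons (edgeR, TMM scaling). Red points with their rank passed an adjusted p under 0.05: none between shPum2 and shControl, 5 lower in shStau2 than in shControl, and 5 higher in shPum2 than in shStau2.

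Rank 147, ENSRNOG00000020039, fell furthest. It had 1358, 1338 and 1409 CPM in shControl, 1395, 1346 and 1450 CPM in shPum2, and 299, 282 and 371 CPM in shStau2. The shStau2 libraries lay far below the other 6, which were within 112 CPM of each other. The mean fell from 1368 ± 36.5 CPM to 318 ± 47.2 CPM (SD, n = 3 each), or 4.31-fold, with a log2 difference of -1.99 (SE 0.26, edgeR adjusted p = 0.00122). It passed under each of the 16 alternatives, with a log2 difference from -2.24 to -1.83 and an adjusted p of at most 0.0255.

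Rank 143, ENSRNOG00000019960, had 1282, 1339 and 1579 CPM in shControl, 1110, 1420 and 1592 CPM in shPum2, and 308, 415 and 524 CPM in shStau2. The mean was 3.37-fold lower in shStau2 than in shControl, and the log2 difference was -1.63 (SE 0.30, edgeR adjusted p = 0.0164). Every shStau2 library was below every other library. In shStau2 both ranks 143 and 147 were below 1000 CPM in every library, and in shControl and shPum2 both were above it.

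Rank 100 had 1895, 1979 and 2520 CPM in shControl and 863, 762 and 408 CPM in shStau2, a log2 difference of -1.60 (SE 0.31, edgeR adjusted p = 0.0185). In shPum2 it was uneven, with 2814 CPM in replicate 1 and 1361 and 1444 CPM in replicates 2 and 3. Rank 45 had 4995, 3966 and 4920 CPM in shControl, 4221, 3658 and 5688 CPM in shPum2, and 1958, 1617 and 1298 CPM in shStau2. Its log2 difference from shControl was -1.44 (SE 0.25, edgeR adjusted p = 0.0114). In both rows all shStau2 libraries were below the other 6.

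Rank 13 was the most abundant of the rows that fell. It had 15033, 16169 and 15971 CPM in shControl, 12738, 15909 and 13956 CPM in shPum2, and 6552, 7331 and 7233 CPM in shStau2. The groups shControl and shStau2 were far apart and tight, at 15724 ± 607 and 7039 ± 425 CPM (SD, n = 3 each), a 2.23-fold difference. The log2 difference was -1.05 (SE 0.24) and the edgeR adjusted p of 0.0481 was close to the threshold. It missed the threshold in 11 of the 16 alternatives, with an adjusted p of up to 0.263, while the log2 difference stayed between -1.18 and -0.89.

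**Figure D4:**
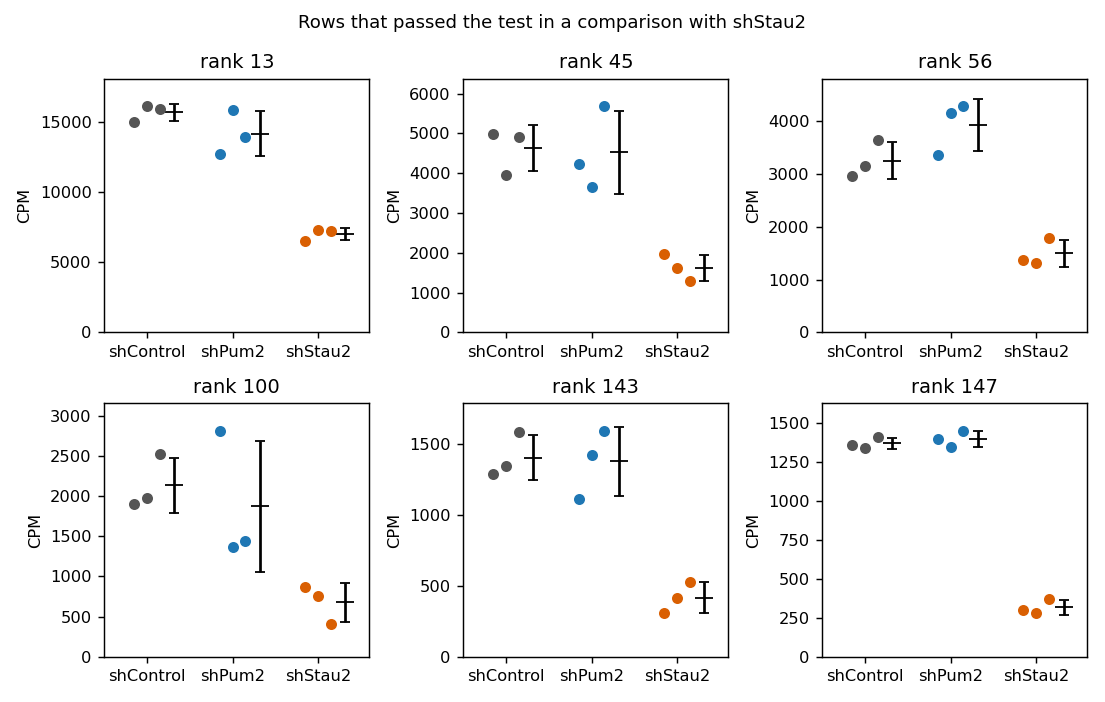
CPM of the 6 rows that passed the test in a comparison with shStau2, for 3 libraries a group in the order of replicate, with mean ± SD (n = 3) beside them. In each row the 3 shStau2 libraries lie below the other 6 libraries.

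Calls other than that of rank 147 were lost when certain single libraries were left out, while the differences stayed of like size. They ran from -1.58 to -1.35 for rank 45, from -1.70 to -1.40 for rank 100 and from -1.95 to -1.35 for rank 143 on the log2 scale. A single row of the 152 was called without shControl replicate 1, without shControl replicate 3 or without shStau2 replicate 2, and 3 rows without shStau2 replicate 1. Fewer of all rows tested were called in these fits too, at 0.26%, 0.364%, 0.263% and 0.374%, against 0.878% with every library. Without shStau2 replicate 3 there were 13 rows that fell and 1 that rose, where 1.33% and 0.442% of the 6334 rows then tested were called. All 5 rows above were among the 13. Between shPum2 and shControl still none was called without that library, where 0.0474% and 0.0158% of all rows were called higher and lower. The 8 added were ranks 49, 56, 64, 66, 89, 95, 119 and 130, with log2 differences from -1.48 to -1.01. With replicate 3 included, ranks 89, 119 and 130 had shStau2 means of 947, 895 and 700 CPM. They reached a mean of 1000 CPM only through the other groups, so the count of 13 is a description too. The row that rose was rank 86, with 1645, 1601 and 1339 CPM in shControl, and 2893, 3136 and 1262 CPM in shStau2. Its log2 difference was 0.99 (SE 0.21, edgeR adjusted p = 0.0175) without replicate 3 and 0.73 (SE 0.28, adjusted p = 0.32) with it.

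At an unadjusted p under 0.05 there were 29 of the 152 rows (19.1%), against 11.4% of all rows tested. The libraries of shStau2 and shControl did not overlap in 27 rows that were lower in shStau2, or 17.8% of the 152, and in 15 that were higher, or 9.87%. Over all rows tested these shares were 12.6% and 4.83%. Without shStau2 replicate 3 the unadjusted count was 45 rows (29.6%, against 16.2% of all rows), and ranges did not overlap in 50 lower rows (32.9%, against 19.2%) and 32 higher ones (21.1%, against 16.9%). Ranges of 2 libraries overlap those of 3 less readily, so these counts are to be read against their own shares. Rows low in shStau2 could be taken in through the other groups, and the median SE was smaller in the 152 rows. All counts in this comparison are therefore a description. Rank 89 is an example near the threshold. It had 1984, 2150 and 2040 CPM in shControl and 947, 850 and 1044 CPM in shStau2, a log2 difference of -1.01 (SE 0.24, edgeR adjusted p = 0.0568).

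The hairpin groups were also set against each other. Of the 152 rows, 5 were higher in shPum2 than in shStau2 and none was lower (edgeR quasi-likelihood test, adjusted p under 0.05), where 0.685% and 0.123% of all rows tested were called higher and lower. They were ranks 45, 56, 100, 143 and 147. Ranks 100, 143 and 147 were among the 152 rows only through shControl and shPum2, so this count too is a description. At an unadjusted p under 0.05 there were 26 rows (17.1%), against 11.3% of all rows. Ranges did not overlap in 20 rows higher in shPum2 (13.2%, against 11.1% of all rows) and in 12 lower (7.89%, against 4.25%). Without shStau2 replicate 3 there were 49 rows at an unadjusted p under 0.05 (32.2%, against 21.2% of all rows), with 48 higher (31.6%, against 18.4%) and 27 lower (17.8%, against 17.8%) that did not overlap. Rows low in shStau2 could be among the 152 in the same way, so these counts are a description as well. The comparisons of shStau2 with shControl and with shPum2 both use the shStau2 libraries, so the 4 rows they share are not independent support. The log2 differences were 2.03 (SE 0.26, adjusted p = 0.00163) for rank 147, 1.62 (SE 0.30, adjusted p = 0.0202) for rank 143 and 1.4 (SE 0.25, adjusted p = 0.0172) for rank 45, by the same edgeR test. Rank 100 differed by 1.39 (SE 0.31, edgeR adjusted p = 0.0443).

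Rank 56 passed in this comparison and not in that with shControl. It had 3365, 4146 and 4285 CPM in shPum2, 1375, 1318 and 1794 CPM in shStau2, and 2959, 3146 and 3646 CPM in shControl. The shStau2 libraries were the lowest, and shPum2 overlapped shControl. The log2 difference between shPum2 and shStau2 was 1.29 (SE 0.27, edgeR adjusted p = 0.0361), and that between shStau2 and shControl was -1.0 (SE 0.27, adjusted p = 0.10). Rank 13 did the reverse, with 0.93 (SE 0.24, edgeR adjusted p = 0.0838) between shPum2 and shStau2. Passing in 1 comparison only does not show that the differences are unlike in size.

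The count of 5 fell to 1 without shPum2 replicate 3, shStau2 replicate 1 or shStau2 replicate 2 and when only these 2 groups were fitted, and to 2 without shPum2 replicate 2. It was 3 without any 1 of the shControl libraries, which enter only through the spread, the scaling and the filter. The share of all rows called fell as well, from 0.807% to between 0.16% and 0.39% in these fits. Without shStau2 replicate 3 it was 25, of which 20 were higher in shPum2 and 5 lower, where 2.27% and 1.99% of all rows were called. The 5 lower rows were ranks 33, 86, 93, 123 and 135.

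All 3 shStau2 libraries lay below the other 6 libraries in 18 of the 152 rows, or 11.8%, and above them in 4, or 2.63%. Over all rows tested these shares were 6.92% and 1.67%. With shStau2 replicates 1 and 2 alone the counts were 41 (27.0%, against 12% of all rows) and 17 (11.2%, against 9.81%). The 18 rows were ranks 13, 27, 45, 56, 64, 89, 95, 97, 99, 100, 118, 119, 129, 130, 133, 136, 143 and 147. The mean that chose the rows came mostly from the 6 other libraries and could take in rows low in shStau2. These counts are therefore a description. The 4 rows were ranks 2, 76, 81 and 110. Of these 4, rank 110 had the largest difference from shControl, 0.71 (SE 0.27, edgeR adjusted p = 0.32), and its shStau2 values of 1546, 1685 and 2444 CPM lay above 1173 to 1370 CPM in the other 6 libraries.

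The spread of the 152 rows over the 9 libraries was well above counting error. Their CV ran from 6.17% to 67.5% with a median of 20.4%, while the median CV that counting alone gives was 2.73%. In 151 rows the observed CV was more than 2 times the counting CV. The other 5545 rows tested had a median CV of 34.4% and a median counting CV of 23.0%. In the median row among the 152 the highest library was 1.85 times the lowest, and in 89 rows it was less than 2 times the lowest.

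The steadiest rows were ranks 47, 50, 51, 63 and 115, with CVs of 6.79%, 6.65%, 6.45%, 7.34% and 6.17%. Rank 115 lay between 1310 and 1538 CPM in all 9 libraries and rank 51 between 2786 and 3373 CPM. The groups overlapped in both rows. The most variable were ranks 93, 104, 100, 147 and 143, at 67.5%, 52.6%, 52.1%, 52.0% and 48.0%.

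Ranks 93 and 104 varied widely within shPum2 and shStau2. Rank 93 had 1105, 1464 and 1456 CPM in shControl, 2334, 684 and 715 CPM in shPum2, and 3863, 2901 and 572 CPM in shStau2. Rank 104 had 1489, 1370 and 1555 CPM, then 2616, 771 and 788 CPM, then 2120, 2654 and 417 CPM. In both rows shPum2 replicates 2 and 3 and shStau2 replicate 3 lay below every control library, and shPum2 replicate 1 and shStau2 replicates 1 and 2 above. With all 9 libraries neither row passed a test of the groups (edgeR adjusted p at least 0.46 in each comparison). Without shStau2 replicate 3 rank 93 was called lower in shPum2 than in shStau2 (log2 difference -1.45, SE 0.34, edgeR adjusted p = 0.0188).

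Over 3 libraries the controls were the most even group. The median within-group CV of the 152 rows over 3 libraries stood at 10.2% for shControl, 13% for shPum2 and 24.5% for shStau2. It was 9.81% over shStau2 replicates 1 and 2 alone. That value rests on 2 libraries, left after replicate 3 was seen to stand apart. No such value was computed for the other groups, so it cannot be set against theirs. For the other rows tested the medians in the 3 groups were 24.2%, 28.8% and 34.0%. The library shStau2 replicate 3 lay above both other shStau2 libraries in 99 of the 152 rows, or 65.1%, and below both in 36, or 23.7%. Among all rows tested the balance was the opposite, with 32.3% above and 51.6% below. It was the highest of all 9 libraries in 64 of the 152 rows, or 42.1%, against 13.1% of all rows tested. The mean that chose the rows included this library and could take in rows high in it, so these counts are a description. CPM values in a library sum to a fixed total, so where abundant rows take a larger share the rest take a smaller one.

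On principal components of log2 CPM of the 152 rows, the first carried 46.6% of the variance and the second 33.5%. On the first, all 3 shStau2 libraries (4.84, 5.78 and 0.60 for replicates 1 to 3) lay above the 6 other libraries (-3.85 to -1.0), with replicate 3 nearest to them. The second set shStau2 replicate 3 (6.28) apart from the other 8 (-2.86 to 1.42). On neither did shPum2 and shControl separate. The plot of deviations by library shows both patterns.

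**Figure D5:**
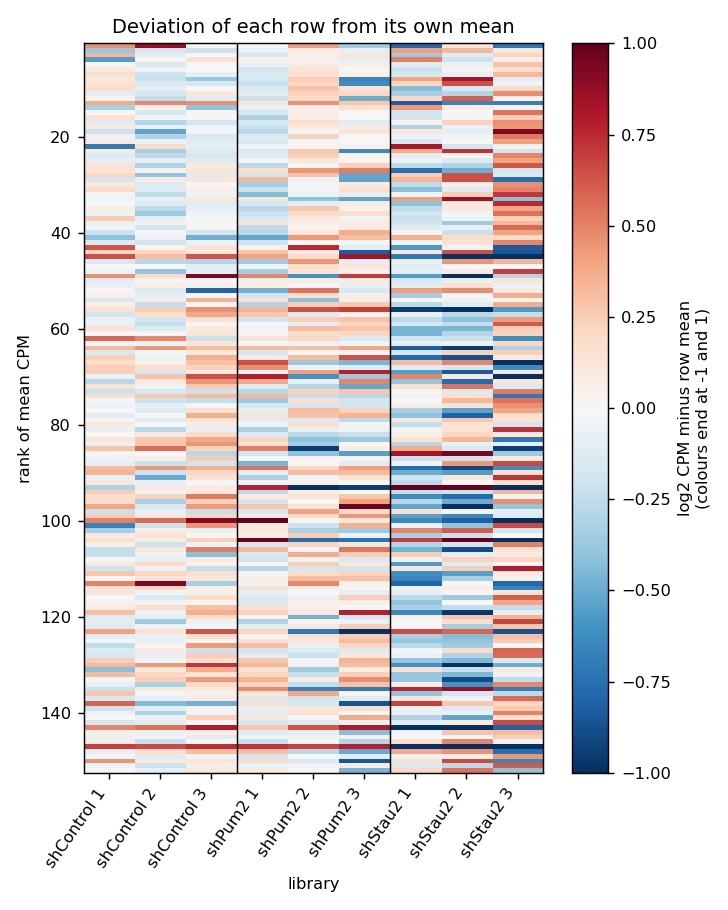
Deviation of log2 CPM of each of the 152 rows (vertical axis, by rank) from its mean over the 9 libraries (columns), with colours ending at -1 and 1. The shControl columns are the palest, shStau2 replicate 3 is red in most of the uppermost rows, and ranks 45, 143 and 147 are blue in all 3 shStau2 columns.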

How the data were processed

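Each of the 9 RNA sequencing libraries had 1 file, in which the authors deposited unnormalised counts by gene row. The submitters' processing notes name bcl2fastq, version 2.19.1.403, and STAR, version 2.6.1a. Genome build, annotation and counted strand are not given in the sources. The 4 rows that name no gene, 97.9% to 98.2% of the reads listed, were left out of totals and tests. Replicates of a group were no duplicates (chi-square per degree of freedom of 4.14 to 15.1).

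All rows kept by filterByExpr (5697, with 96.0% to 97.7% of the gene counts) were fitted with edgeR 4.0.16 in R 4.3.3, using TMM factors, a quasi-likelihood model with all 9 libraries and no block, and Benjamini-Hochberg adjustment over all rows at 0.05. Shares were compared by exact permutation tests in SciPy 1.17.1. Intervals cover counting error only. Alternatives used DESeq2 1.42.0, limma 3.58.1, other scalings and filters, and each library left out. The model was tested on simulated data.

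The rows and lists were chosen with earlier results of these data known. The named rows were the 10 most abundant, those past the threshold in any comparison, the 5 steadiest and 5 most variable, and 2 on each side of 1000 CPM. Ranks 41, 49, 86, 89, 110 and 123, and other ranks given in lists, were added after their values were seen. Counts without shStau2 replicate 3 at an unadjusted p, of ranges that do not overlap and of rows above 0 were added after seeing the data. Marker and gene class lists could not be applied, since no identifier had a symbol. No sequence is printed for the same reason.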

Additional observations from a re-analysis of the deposited data

Results flagged for a closer look

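In 5 of the 152 rows the level differed when shPum2 was tested directly against shStau2. The log2 differences were 2.03 for rank 147, 1.62 for rank 143, 1.4 for rank 45, 1.39 for rank 100 and 1.29 for rank 56, each higher in shPum2. Ranks 100, 143 and 147 were among the 152 rows only through their levels in shControl and shPum2. Over all rows tested, 0.685% were called higher and 0.123% lower. The count of 5 was 1 when only these groups were fitted and ran from 1 to 25 with 1 library left out, while the share of all rows called ran from 0.16% to 4.26%. With 3 libraries a group, no single library was tested as an outlier. None of the 5 rows was called between shPum2 and shControl, where 0.0176% of all rows tested were called higher and none lower.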

How the results depend on the processing

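The number of rows was 273 at 500 CPM and 76 at 2000 CPM in place of 152, and between 105 and 160 in the other alternatives (151 to 154 with 1 library left out). No row was called between shPum2 and shControl in any of the 16 alternatives. The 5 calls between shStau2 and shControl became 9 with library totals without rank 1, 8 with DESeq2 and 9 with the replicate number as a block (1.16%, 1.37% and 1.46% of all rows, against 0.878%). They ran from 1 to 14 with 1 library left out (0.26% to 1.77%). The 5 calls between shPum2 and shStau2 became 8 with DESeq2, 1 when only those groups were fitted and 7 with the block (1.46%, 0.193% and 1.42% of all rows, against 0.807%). Of the 8 with DESeq2, 7 were higher in shPum2 and 1 was lower. With library totals without rank 1 there were 7 calls (0.913% of all rows), which held 4 of the 5. Rank 100 missed the threshold there (edgeR adjusted p = 0.0525). The calls between shPum2 and shStau2 ran from 1 to 25 with 1 library left out (0.16% to 4.26%). Apart from the fits with fewer libraries, the cause was not tested. Same-numbered replicates were not treated as pairs, and the labels do not say whether they are. The correlation of deviations was over 0.1 in 5 of 9 pairs (range -0.24 to 0.51). It was 0.51 and 0.46 between shPum2 and shStau2 in replicates 1 and 3. Of the 9 libraries, 5 correlated best with their own number. These values do not settle whether the replicates are paired. In shares, the block left each mean difference as it was, since both use the same means. The share of rank 1 kept its direction throughout, though its size moved with single libraries. The summed share of the other rows was reversed between shPum2 and shControl without shPum2 replicate 2 (-0.51 points) or shControl replicate 2 (-0.082 points), and between shPum2 and shStau2 without shStau2 replicate 3 (0.58 points). With 1 library left out the difference lay between -0.51 and 2.56 points for shPum2 against shControl, between -3.33 and 0.58 points for shPum2 against shStau2, and between 0.49 and 4.4 points for shStau2 against shControl. The cause was not tested. Counting error was at most 7.0% for any of the 152 rows in a library, so the spread between libraries, more than depth, sets the precision.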
